A study of Mus musculus with 5 samples.

Results

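The cells described here are labelled arterial and large vessel endothelium of the mouse kidney and were chosen by a gate on raw transcript counts. The gate also took in cells with vasa recta genes, as given below. A cell entered if it had at least 200 detected genes, at most 50% mitochondrial unique molecular identifiers (UMIs, 1 per captured transcript), at least 2 UMIs of the endothelial gene Egfl7, at least 2 summed UMIs of Fbln5, Gja5 and Sox17, and no UMI of Plvap, Ehd3 or Ptprc. Of 13823 cells that passed the quality limits in 4 droplet libraries, 77 entered: 15 from sham, 21 from day 2, 22 from day 7 and 19 from reversed. The rule used measured values of these 7 genes, so their levels are given as a description without a test.

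The study followed kidneys through unilateral ureteric obstruction (UUO), a blockage of urine outflow on 1 side, and through its later release. All 4 groups were C57/BL6 mice of 8 weeks, with no transgene named in the labels. They were sham surgery (day 0), day 2 of UUO, day 7 of UUO, and reversed UUO taken 7 days after release, on experimental day 14. Each group was 1 droplet library pooled from 3 mice, made from live sorted cells of kidneys digested on ice, so time points could not be tested against each other and individual animals cannot be told apart.

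Arteries and arterioles carry blood at high pressure to the glomerular and peritubular capillaries, and their endothelium keeps its identity through Notch signalling and the transcription factor Sox17. Their cells are joined by connexins 37 and 40 (Gja4 and Gja5), respond to shear stress through Klf2 and Klf4, and lie on an elastic layer built with elastin, fibulins such as Fbln5, and matrix Gla protein (Mgp). In the kidney the arterial tree continues beyond the glomerulus as efferent arterioles and the descending vasa recta of the medulla, whose endothelium is known for the urea transporter Slc14a1 and the water channel Aqp1. Plvap forms the diaphragms of fenestrated peritubular capillaries and veins, Ehd3 marks glomerular capillaries in mouse, and Ptprc marks leukocytes.

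Among the 3 defining genes, Sox17 was the one found most often. It was present in 70 of the 77 cells with 361 UMIs, Fbln5 in 60 cells with 237 UMIs, and Gja5 in 26 cells with 72 UMIs. Sox17 together with Fbln5 and without Gja5 was the commonest pattern, with 40 cells, and 17 cells held all 3 genes. Sox17 alone admitted 10 cells, 6 of which were among the 15 sham cells, Gja5 alone admitted 4 and Fbln5 alone 1. The sum of the 3 genes had a median of 7 UMIs and ranged from 2 to 30.

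At the threshold, 9 cells had a sum of exactly 2 and 11 cells outside the gate had a sum of 1. Gja4, which the rule did not use, was found in 5 of the 9 cells just inside and in 1 of the 11 just outside, and Sema3g in 3 and 4 cells. Of the 68 cells with a sum of 3 or more, 54 held Gja4. The bound on Plvap removed more cells: 37 met every condition but for a single Plvap UMI, and 94 but for 2 or more, so the gate leaves out cells that carry the arterial genes together with Plvap. Gja4 was found in 25 of those 37 cells and in 53 of those 94 (56.4%), and the VEGF receptor gene Kdr in 14 and 58 (61.7%).

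The label was checked against genes outside the rule. Every cell held between 5 and 12 of 12 general endothelial genes (Pecam1, Cdh5, Tie1, Emcn and others), with a median of 8. Of 20 arterial identity genes the median cell held 7, and 1 sham cell held none. Of 16 genes of the large vessel wall the median cell held 3, and 5 cells held none. This did not exceed the lists of other vessels: the median cell held 3 of 12 peritubular capillary and 3 of 12 glomerular endothelial genes. None of these was found in 5 and 3 cells. The large vessel marker Vwf was nearly absent, with 14 UMIs in 8 cells. Of 10 venous genes the median cell held 1, and 28 cells held none. Tmem252, Ephb4, Nrp2, Vcam1 and Vwf of this list were found in every library. Aplnr, Ackr1, Selp and Ccl21a were at 0 UMIs in all 77 cells, as were the renin gene Ren1 and the podocyte genes Nphs1 and Wt1. No lymphatic gene was found in 64 cells.

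The vasa recta genes cut across the label. Of 12 vasa recta and efferent genes the median cell held 7, and every cell held between 2 and 11. Cldn5 of this list is also among the 12 general endothelial genes. Slc14a1 was found in 13 cells (3, 5, 3 and 2 in sham, day 2, day 7 and reversed) and Aqp1 in 26 (6, 7, 6 and 7). All 13 Slc14a1 cells held Aqp1, against 13 of the other 64. Leukocytes (at least 2 Ptprc UMIs and no Egfl7 UMI, 3123 cells, median 6293 UMIs against 3622 in the gated cells) held Slc14a1 in 4.8% and Aqp1 in 8.77% of cells. The gated cells therefore take in Sox17-positive endothelium with vasa recta genes besides large vessel endothelium, and they are called the arterial gate below.

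Slc14a1 and Stmn2, which were never found in the same cell, divided the arterial gate into 3 sets, a division made after the values were seen and given without a test. The 13 cells with Slc14a1 had a median of 4249 UMIs, the 19 cells with Stmn2, which encodes a tubulin regulator best known from neurons, had 4520, and the 45 cells with neither had 2924. Every library contributed to each set: the Stmn2 cells numbered 4, 5, 4 and 6. Stmn2 is close to free of background, since 0.16% of leukocytes held it.

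Genes of the elastic wall went with Stmn2. Mgp was found in 17 of 19 Stmn2 cells, 4 of 13 Slc14a1 cells and 13 of 45 others, while 40.5% of leukocytes also held it. Elastin (Eln) was found in 15, 2 and 11 cells of the 3 sets, and fibulin 2 (Fbln2) in 15, 0 and 13. The Notch ligand Jag1 was found in 14, 6 and 12, and the lymphangiogenic factor Vegfc in 11, 4 and 6. Nebl, which encodes the actin-binding protein nebulette, was found in 16, 0 and 23, and Pi16 in 16, 1 and 30. Kdr ran the other way, with 2 of 19 Stmn2 cells, 7 of 13 Slc14a1 cells and 20 of 45 others.

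Other genes went with Slc14a1. The actin-severing protein gene Scin was found in 12 of 13 Slc14a1 cells, 4 of 19 Stmn2 cells and 12 of 45 others. Hpgd, which encodes the prostaglandin-degrading enzyme, was found in 7, 0 and 3, and Igfbp3 in 11, 9 and 20. Sox17 was in all 13 Slc14a1 cells and Gja5 in 8 of them, while Fbln5 was in 8 of 13 against 18 of 19 Stmn2 cells. Gja4 and Sema3g, by contrast, were spread over the sets, with Gja4 in 11, 15 and 33 cells and Sema3g in 8, 15 and 19. The tight junction gene Cldn5 was in 11 and 14 cells of the Slc14a1 and Stmn2 sets and in 7 of the 45 others, whose cells were also the shallowest.

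**Figure D1:**
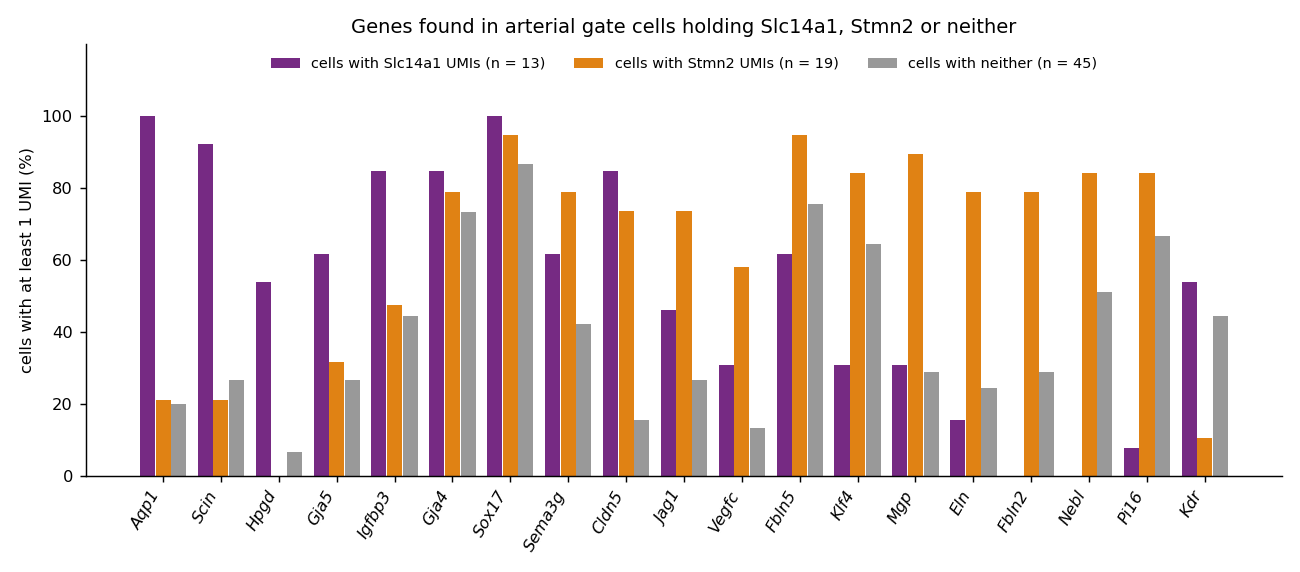
Share of arterial gate cells with at least 1 UMI of each gene (y axis, percent) in cells holding Slc14a1 (n = 13), cells holding Stmn2 (n = 19) and cells holding neither (n = 45). Aqp1, Scin and Hpgd are tallest in the Slc14a1 cells, whereas Mgp, Eln, Fbln2 and Nebl are tallest in the Stmn2 cells.

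Depth differed between libraries. Summed UMIs of the arterial gate were 39732 in sham, 111861 in day 2, 102751 in day 7 and 86906 in reversed, with medians of 2230, 4115, 3443 and 3978 UMIs per cell. All kept sham cells had a median of 33.7% mitochondrial UMIs, whereas the sham arterial gate cells had 4.84%. Across all 4 libraries 146 cell barcodes were shared by a pair of libraries, none belonged to arterial gate cells of both, and 1 arterial gate barcode was also found in another library (day 2 and reversed). RNA of other cell types was present in the gated cells and moved with time. Summed levels of 12 proximal tubule genes were 6468, 1100, 369.8 and 2267 CPM (UMIs per 1000000 UMIs of the same summed cells) in sham, day 2, day 7 and reversed, and those of 12 mononuclear phagocyte genes 101, 563, 2501 and 1024. Of 12 loop of Henle and distal genes (327, 313, 1917 and 3774 CPM), 1 cell gave 158 of 197 UMIs in day 7 and 1 cell 304 of 328 in reversed. Of 11 mural cell genes (50.3, 2432, 97.3 and 80.5 CPM), 1 day 2 cell gave 263 of 272 UMIs. The part of such RNA in the results below was not tested except where a value without such cells is given. That value comes from a repeat without cells that held at least 3 UMIs of any of 9 defining genes of other cell types. The repeat kept 14, 20, 16 and 17 arterial gate cells of sham, day 2, day 7 and reversed, with 34963, 96762, 57407 and 73108 UMIs.

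The arterial gate was first compared with the capillary gate, which holds Plvap-positive endothelium of the same kidneys with few or no UMIs of the arterial genes. The capillary gate required at least 2 UMIs of Egfl7 and of Plvap, no Ehd3 or Ptprc and at most 1 summed UMI of the 3 arterial genes, and it held 24, 20, 113 and 83 cells. The 37 and 94 cells that missed the arterial gate only for Plvap were in neither gate. The 2 gates were thus chosen as opposites on Plvap and the arterial genes. The part of this choice in the list results was not tested. UMIs were summed per library and gate, and the 4 libraries served as the replicates of the difference, with the library as a block, so the spread includes the different conditions. Of 2334 genes tested with edgeR (the 7 gate genes left out), 138 (5.91%) were higher and 173 (7.41%) lower in the arterial gate at an adjusted p under 0.05. These counts depended on single libraries: without day 7 they were 82 and 91, and without reversed 72 and 102. Without the library block they were 65 and 84. Markers of other cell types were among the calls: Slc12a1 (2.66 ± 0.33) and Wfdc15b (1.90 ± 0.43), 2 of 3 loop of Henle and distal genes tested, were higher on the log2 scale, and both had too few UMIs to be tested without day 7 or without reversed. Of 4 injured tubule genes tested 3 were lower, Lcn2 (-1.76 ± 0.41), Spp1 (-1.49 ± 0.30) and Vcam1, and Spp1 was lost without reversed (adjusted p = 0.073). Without cells carrying markers of other types the counts were 117 higher and 147 lower. The part of such RNA in single other calls was not tested except where a value without those cells is given.

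Arterial identity genes were higher. Of 15 tested, 9 rose and none fell, with a median log2 fold change of 2.32 against 0.01 over all genes tested, and 6 of the 9 were also called with each library left out in turn. Gja4 (connexin 37) stood at 554, 706, 457 and 322 CPM in the arterial gate of sham, day 2, day 7 and reversed, and at 84.7, 0, 24.9 and 26.5 CPM in the capillary gate. Every arterial value lay above every capillary one, as it did for 8 of the 15 genes of the list and 5.70% of all genes tested, and the log2 fold change was 3.97 ± 0.32 (SE, adjusted p = 1.7e-08). Jag1 stood at 378, 188, 341 and 656 CPM against 21.2, 13.8, 13.6 and 21.2, a log2 fold change of 4.66 ± 0.30 (adjusted p = 4.6e-10).

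Sema3g, a secreted semaphorin of arterial endothelium, and Edn1, the precursor of the vasoconstrictor endothelin 1, were also separated from the capillaries in every library. Sema3g was at 352, 286, 516 and 138 CPM against 63.6, 68.8, 65.5 and 39.7 (log2 fold change 2.49 ± 0.28, adjusted p = 1.6e-06). Edn1 was at 227, 474, 117 and 288 CPM against 21.2, 82.5, 24.9 and 15.9 (log2 fold change 2.99 ± 0.37, adjusted p = 7e-06). Stmn2 had 76 UMIs in the arterial gate and none in the capillary gate, at least 69.8-fold higher when the capillary sum is set to 3 UMIs. Vegfc, at 252, 116, 29.2 and 265 CPM against 21.2, 0, 11.3 and 15.9, rose with all libraries (adjusted p = 0.00035) but not without the reversed one (adjusted p = 0.11).

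The wall and the vasa recta genes were higher too. In the large vessel wall list 4 of 7 tested genes rose and 1, Bgn, fell, and of the 4 Mgp and Fbln2 were called with each library left out. Mgp, an inhibitor of vascular calcification, was at 2416, 1967, 1236 and 1013 CPM against 0, 27.5, 99.4 and 834 (log2 fold change 3.03 ± 0.55, adjusted p = 0.00048), and Fbln2 at 428, 125, 117 and 334 against 106, 0, 9.04 and 29.1 (log2 fold change 3.26 ± 0.41, adjusted p = 8.6e-06). Mgp came closest to overlap in reversed, where the level over all kept cells was 709 CPM, and most of its sham UMIs were in 1 cell. Eln was at 403, 107, 87.6 and 207 CPM against 0, 27.5, 33.9 and 29.1 (log2 fold change 2.44 ± 0.48, adjusted p = 0.001), and had too few UMIs to be tested without reversed. Ltbp4 was at 428, 125, 156 and 242 CPM against 169, 41.3, 83.6 and 132, and its call was lost at an adjusted p of 0.061 without reversed.

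In the vasa recta and efferent list 8 of 11 tested genes rose and 1 fell. Aqp1 was at 2668, 1448, 526 and 1484 CPM against 63.6, 68.8, 40.7 and 79.4 (log2 fold change 4.23 ± 0.26, adjusted p = 2.6e-10), and Slc14a1 at 227, 232, 165 and 23 against 21.2, 0, 2.26 and 0 (54 UMIs against 2, adjusted p = 2.8e-05). Cldn5 was at 2391, 1064, 808 and 1599 CPM against 487, 138, 147 and 76.8 (log2 fold change 3.03 ± 0.29, adjusted p = 1.6e-07). The calcium-binding protein gene S100a4, a member of this list and of the mesenchymal list, was separated likewise. So was the intermediate filament gene Vim of the mesenchymal list, at 2165, 3308, 1742 and 1703 CPM against 148, 523, 423 and 344 (log2 fold change 2.52 ± 0.23, adjusted p = 1.5e-07). Vim is widely expressed, and 69.1% of leukocytes held it. The exception was Igfbp3, lower in the arterial gate at 729.9, 501, 1810.2 and 644 CPM against 2034, 2792, 2007 and 961 (log2 fold change -1.12 ± 0.29, adjusted p = 0.0096), a call lost at an adjusted p of 0.11 without day 2 and 0.059 without reversed.

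Genes outside the lists that differed most in the same direction included the tetraspanin gene Tspan8 (log2 fold change 4.72 ± 0.30), Cttnbp2 (5.15 ± 0.69) and the sialyltransferase gene St8sia6 (4.32 ± 0.72). Where a gate held 1 to 3 UMIs of a gene, the fold of CPM summed over the 4 libraries is given with its 95% exact interval for counting error. By this measure Nebl differed most (86 UMIs against 2, 118-fold higher, 31.8 to 994), followed by Fam181b (52 UMIs against 2, 71.6-fold higher, 18.9 to 607) and the proprotein convertase gene Pcsk5 (38 UMIs against 3, 34.9-fold higher, 11.1 to 177). Calca, which encodes calcitonin and the vasodilator peptide CGRP, had 30 UMIs in 8 arterial gate cells and none in the capillary gate, at least 27.5-fold higher. Tspan8 was the most abundant of them, at 1359, 2065, 1703 and 1449.8 CPM against 0, 68.8, 47.5 and 92.7. Nebl was found in 39 of the 77 cells, against 1.7% of leukocytes.

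Genes of the peritubular capillary list were lower: 9 of 10 tested fell and none rose, with a median log2 fold change of -2.14, and 7 of the 9 were called with each library left out. Rgcc was at 0, 0, 19.5 and 23 CPM in the arterial gate against 1314, 2256, 1360.4 and 1038 (log2 fold change -6.94 ± 0.42, adjusted p = 2.6e-10). Kdr, the main VEGF receptor, was at 201, 169.9, 127 and 138 CPM against 953, 344, 463 and 469 (log2 fold change -1.71 ± 0.24, adjusted p = 3.4e-05), and Flt1 at 327, 322, 594 and 495 against 1504, 1004, 1042 and 1083 (log2 fold change -1.36 ± 0.23, adjusted p = 0.00022). Every arterial value lay below every capillary one for 7 of these 10 genes, against 6.94% of all genes tested. Of 9 tested genes of the VEGF and angiopoietin pathway 6 fell and 1, Vegfc, rose, and 4 of the 6 were called with each library left out. This list shares Kdr, Flt1 and Esm1 with the peritubular capillary list and Nrp2 with the venous list, so their counts overlap. Rgcc was nearly absent, with 0, 0, 2 and 2 UMIs.

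Of the venous list 5 of 6 tested genes were lower and none higher, and 3 of the 5 were called with each library left out. The Ephb4 call was lost at an adjusted p of 0.15 without day 2, 0.11 without day 7 and 0.072 without reversed, and the Nr2f2 call at 0.25 without reversed. Aplnr, the apelin receptor, had no UMI in the 77 arterial gate cells and 212, 165, 364 and 363 CPM in the capillary gate, at least 38.7-fold lower with the arterial sum set to 3 UMIs. Its ligand gene Apln was also among the 10 largest decreases (1 UMI against 43, 15.6-fold lower, 2.66 to 631). Igf1 had no UMI either, at least 16.7-fold lower. The others were Btnl9 (2 UMIs against 152, 27.6-fold lower, 7.51 to 229.9), Mmp11 (1 UMI against 89, 32.3-fold lower, 5.65 to 1290.2), Vwa1 (log2 fold change -4.25 ± 0.53), Fscn1 (-3.79 ± 0.40), Trp53i11 (-3.58 ± 0.49) and the interferon-inducible gene Ifi204 (-3.39 ± 0.59).

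Interferon response genes were lower in the arterial gate than in capillaries. Of 14 tested, 10 fell and none rose, with a median log2 fold change of -1.11, and 4 of the 10 (Rsad2, Iigp1, Gbp2 and Bst2) were called with each library left out. Rsad2, the antiviral protein viperin and also a member of the peritubular capillary list, was at 478, 152, 204 and 207 CPM against 1801, 509, 841 and 1115 (log2 fold change -2.06 ± 0.22, adjusted p = 1.1e-06). Iigp1, an interferon-inducible GTPase, was at 126, 44.7, 156 and 69 CPM against 318, 220.1, 343 and 408 (log2 fold change -1.74 ± 0.28, adjusted p = 0.00014). In the antigen presentation lists 3 of 9 class I and 2 of 4 class II genes fell and none rose, and 1 of the 3 and 1 of the 2 were called with each library left out. Among class I genes the B2m call was lost at an adjusted p of 0.06 without sham, 0.15 without day 2 and 0.25 without day 7, and the H2-Q6 call at 0.086 without day 7 and 0.062 without reversed. The class II gene H2-Aa was lost at 0.052 without reversed. Cd74, the class II chaperone, was at 126, 215, 1732 and 828 CPM against 424, 399, 3697 and 1782 (log2 fold change -1.13 ± 0.22, adjusted p = 0.00086). It was found in 98.3% of leukocytes, and the phagocyte gene list summed to 101, 563, 2501 and 1024 CPM in the arterial gate against 63.6, 550.2, 3579 and 1676 in the capillary gate. Without cells carrying markers of other types the Cd74 call was lost, at an adjusted p of 0.075, as was that of H2-Aa at 0.27.

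Among regulators of vascular tone and flow sensing, Klf2 (0.83 ± 0.19, adjusted p = 0.0044), Klf4 (1.53 ± 0.23, adjusted p = 5.6e-05) and Edn1 had higher log2 levels, and 5 of 9 tested shear stress genes rose and none fell, 3 of the 5 being called with each library left out. Slc9a3r2 was lost at an adjusted p of 0.1 without sham, 0.076 without day 2, 0.13 without day 7 and 0.072 without reversed. Klf4 was at 403, 286, 438 and 702 CPM against 212, 55, 127 and 281. Nos3, the endothelial nitric oxide synthase, was at 50.3, 116, 117 and 196 CPM against 63.6, 82.5, 42.9 and 53, and its call (adjusted p = 0.048) was lost without reversed (adjusted p = 0.48) and without cells carrying markers of other types (adjusted p = 0.056). In the vasoactive list 2 of 8 rose, Edn1 and Nos3, and 3 fell, of which 2 were called with each library left out. The third, Npr1, was lost at an adjusted p of 0.13 without day 2 and 0.056 without day 7. The endothelin receptor gene Ednrb, at 75.5, 35.8, 165 and 173 CPM against 445, 413, 319 and 286, had a log2 fold change of -1.54 ± 0.32 (adjusted p = 0.002), and the prostaglandin synthase gene Ptgs1 one of -2.67 ± 0.43 (adjusted p = 0.00014). The junctional adhesion gene Jam2 was the 1 higher gene of 6 adhesion genes tested, at 126, 313, 613 and 460.3 CPM against 63.6, 110.0, 136 and 151 (log2 fold change 1.80 ± 0.23, adjusted p = 9.7e-06), and Vcam1 and Cd34 fell. In the basement membrane list Col18a1 (2.32 ± 0.31) and Timp3 (1.34 ± 0.19) rose, and Col4a1 (-1.43 ± 0.25), Col4a2 (-1.21 ± 0.25), Nid1 and Hspg2 fell. The Cd34 call was lost at an adjusted p of 0.086 without day 2 and 0.14 without day 7, the Nid1 call at 0.059 without day 2 and 0.1 without reversed, and the Hspg2 call at 0.074 without reversed.

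**Figure D2:**
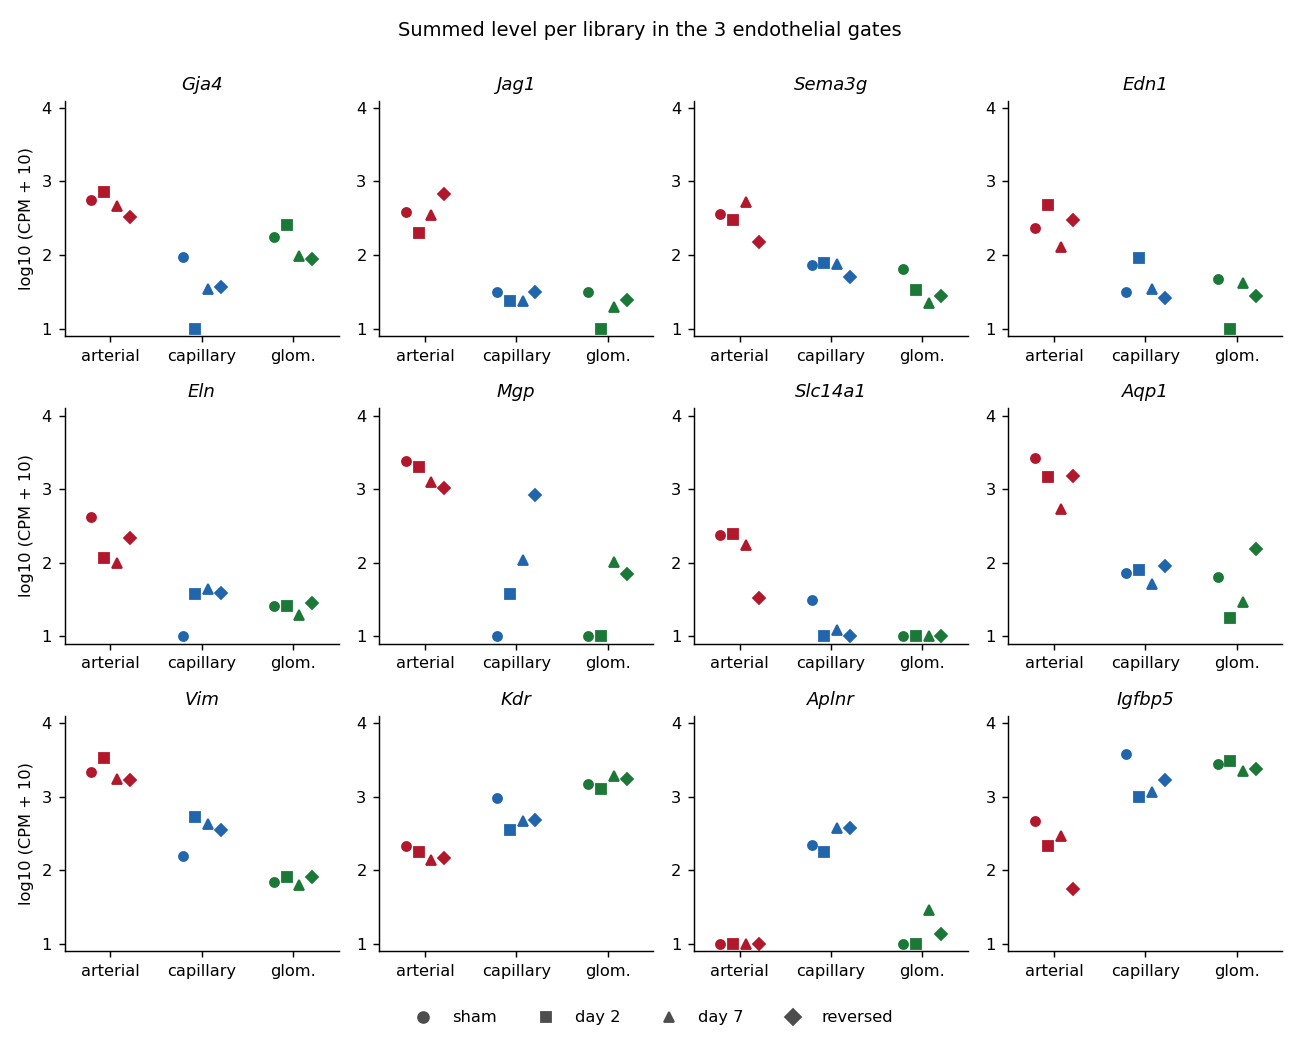
Summed level per library, as log10 of CPM plus 10 (y axis), of 12 genes in the arterial, capillary and glomerular gates, 1 symbol per library (circle sham, square day 2, triangle day 7, diamond reversed). Gja4, Jag1, Aqp1 and Vim lie higher in the arterial gate in every library, and Kdr, Aplnr and Igfbp5 lie lower than in the capillary gate.

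The second comparison was with the glomerular gate: at least 2 UMIs of Egfl7 and of Ehd3, no Plvap or Ptprc and at most 1 summed UMI of the arterial genes, with 68, 31, 82 and 60 cells. This comparison uses the same arterial sums as the first, so its values are given on their own. Here too the gates were chosen as opposites, on Ehd3 and the arterial genes. Of 2971 genes tested, 276 (9.29%) were higher and 266 (8.95%) lower in the arterial gate. Leaving out 1 library at a time gave 200 to 226 higher and 204 to 232 lower genes, and the fit without the library block gave 128 and 162. Slc12a1, Umod and Wfdc15b of the loop of Henle were among the higher genes, and 1 cell held most of these UMIs in day 7 and in reversed.

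The wall and vasa recta genes again stood above. In the vasa recta and efferent list 10 of 12 tested genes rose and none fell, with a median log2 fold change of 2.40 against 0.01 over all genes tested, and all 10 were called with each library left out. Every arterial value lay above every glomerular one for 10 of the 12, against 6.56% of all genes tested. Igfbp3 was at 10.7, 0, 34.7 and 10.8 CPM in the glomerular gate (log2 fold change 5.96 ± 0.29, adjusted p = 3.8e-11), so its arterial level lay above the glomerular and below the capillary one in each library. Aqp1 was at 53.6, 7.96, 18.9 and 144 CPM there (log2 fold change 4.69 ± 0.34, adjusted p = 1e-08). Slc14a1 had no UMI in 241 glomerular gate cells, at least 47.8-fold higher in the arterial gate with the glomerular sum set to 3 UMIs.

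In the large vessel wall list 4 of 6 tested genes rose and 1, Emilin1, fell. Fbln2 had no UMI in the glomerular gate, at least 63.7-fold higher. Mgp (log2 fold change 5.09 ± 0.45, adjusted p = 1.4e-07), Eln (3.66 ± 0.45, adjusted p = 7.8e-06) and the TGF-beta binding protein gene Ltbp4 (2.00 ± 0.28, adjusted p = 3.5e-05) were the others. All 4 were called with each library left out.

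Arterial identity genes were divided. Of 17 tested, 8 rose and 2 fell, with a median log2 fold change of 0.61. Jag1 was at 21.5, 0, 9.47 and 14.4 CPM in the glomerular gate (log2 fold change 5.12 ± 0.34, adjusted p = 4.6e-09) and Bmx, an endothelial tyrosine kinase gene of large arteries, had no UMI there, at least 29.2-fold higher in the arterial gate. Gja4 was at 166, 247, 88.4 and 79.3 CPM, and differed as well (log2 fold change 1.99 ± 0.21, adjusted p = 1.3e-06). The neuropilin gene Nrp1 was lower in the arterial gate, at 428, 384, 633 and 598 CPM against 2799, 2867, 2598 and 2473 (log2 fold change -2.29 ± 0.19, adjusted p = 6.8e-08). The other lower gene was Efnb2 (-0.84 ± 0.25), a call lost at adjusted p-values of 0.072 without day 2, 0.064 without day 7 and 0.13 without reversed. Vegfc was called as well (49 UMIs against 1, 130.1-fold higher, 22.3 to 5244), at an adjusted p of 1e-05.

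Glomerular endothelial genes were lower, 9 of 11 tested against 1 higher (Eps8l2), and 7 of the 9 were called with each library left out. The tissue plasminogen activator gene Plat was at 529, 393, 934 and 667 CPM against 3845, 5693, 3949 and 3183 in glomerular endothelium (log2 fold change -2.62 ± 0.23, adjusted p = 1.4e-07). The lipase gene Lpl (-2.99 ± 0.37) and the transcription factor genes Gata5 (-2.88 ± 0.56) and Tbx3 (-1.99 ± 0.24) fell too. Against capillaries, 4 genes of this same list had been higher (Pi16, Plat, Nostrin and Eps8l2), of which Pi16 and Eps8l2 were called with each library left out. Pi16 was at 705, 339.7, 331 and 725 CPM in the arterial, 233, 13.8, 42.9 and 76.8 in the capillary and 2118, 1099, 511 and 670.4 in the glomerular gate. Its arterial value exceeded the capillary one in 4 of 4 libraries and lay below the glomerular one in 3 of 4, and the lower call was lost at an adjusted p of 0.17 without sham and 0.14 without day 2.

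Of the 10 peritubular capillary genes tested here, 6 fell and 1, Igfbp7, rose. Kdr was at 1480.1, 1266, 1903 and 1752 CPM in the glomerular gate (log2 fold change -3.27 ± 0.23, adjusted p = 9.9e-09). Igfbp7 was at 1233, 2548, 1985 and 1427 CPM against 601, 565, 202 and 739 (log2 fold change 1.95 ± 0.29, adjusted p = 6.2e-05). Of 4 venous genes tested, 1, Tmem252, rose and none fell, with a median log2 fold change of 0.38. The Tmem252 call was lost at an adjusted p of 0.073 without day 2. The largest decreases by rule also included Fam101a (no UMI, at least 19.2-fold lower), the carboxylesterase gene Ces2e (no UMI, at least 15.3-fold lower), the fatty acid transporter Cd36 (no UMI, at least 8.03-fold lower), Gchfr (log2 fold change -4.05 ± 0.44), Ankrd44 (-4.01 ± 0.45), Meg3 (-3.80 ± 0.44) and Cd300lg (-3.52 ± 0.31). Col15a1 (1 UMI against 101, 38-fold lower, 6.67 to 1517), Gimap3 (3 UMIs against 153, 19.2-fold lower, 6.45 to 94.1) and Chst8 (2 UMIs against 85, 16-fold lower, 4.3 to 134) belonged to the same group. Among the largest increases were Egfl8 (54 UMIs against 1, 143-fold higher, 24.7 to 5768), Hpgd (57 UMIs against 2, 75.7-fold higher, 20 to 640.1), and Ssu2 and Mall, which had no UMI in the glomerular gate and were at least 30.1-fold and 25.7-fold higher.

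Shear stress genes were higher than in the glomerulus. Of 9 shear stress genes 6 rose and none fell, 5 of the 6 with each library left out, among them Nos3 (log2 fold change 2.42 ± 0.49, adjusted p = 0.0012), the anticoagulant receptor gene Thbd (1.62 ± 0.23, adjusted p = 3.1e-05) and Klf4 (2.10 ± 0.26, adjusted p = 7.6e-06). Edn1 was at 37.5, 0, 31.6 and 18 CPM in the glomerular gate (log2 fold change 3.43 ± 0.44, adjusted p = 1.1e-05). Jam2 was at 10.7, 23.9, 41 and 18 CPM (4.11 ± 0.28, adjusted p = 6.6e-09), and Vim at 59, 71.7, 53.7 and 72.1 CPM (5.11 ± 0.22, adjusted p = 1.2e-11). Of 11 interferon genes 3 rose and none fell, and none of these 3 calls (Isg15, Irf7, Psmb8) held with each library left out. Isg15 had an adjusted p of 0.093 without sham, 0.11 without day 2 and 0.068 without reversed, Irf7 of 0.083 without sham, 0.059 without day 2 and 0.077 without reversed, and Psmb8 of 0.092 without sham, 0.056 without day 2 and 0.058 without reversed. Of 9 immediate early and heat shock genes tested, Fos (2.35 ± 0.31), Hspa1a (3.22 ± 0.27) and Ier2 rose, with 37 of 47 Fos and 40 of 57 Hspa1a UMIs of day 2 in 1 cell each. The Ier2 call was lost at an adjusted p of 0.09 without day 2 and 0.19 without reversed.

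**Figure D3:**
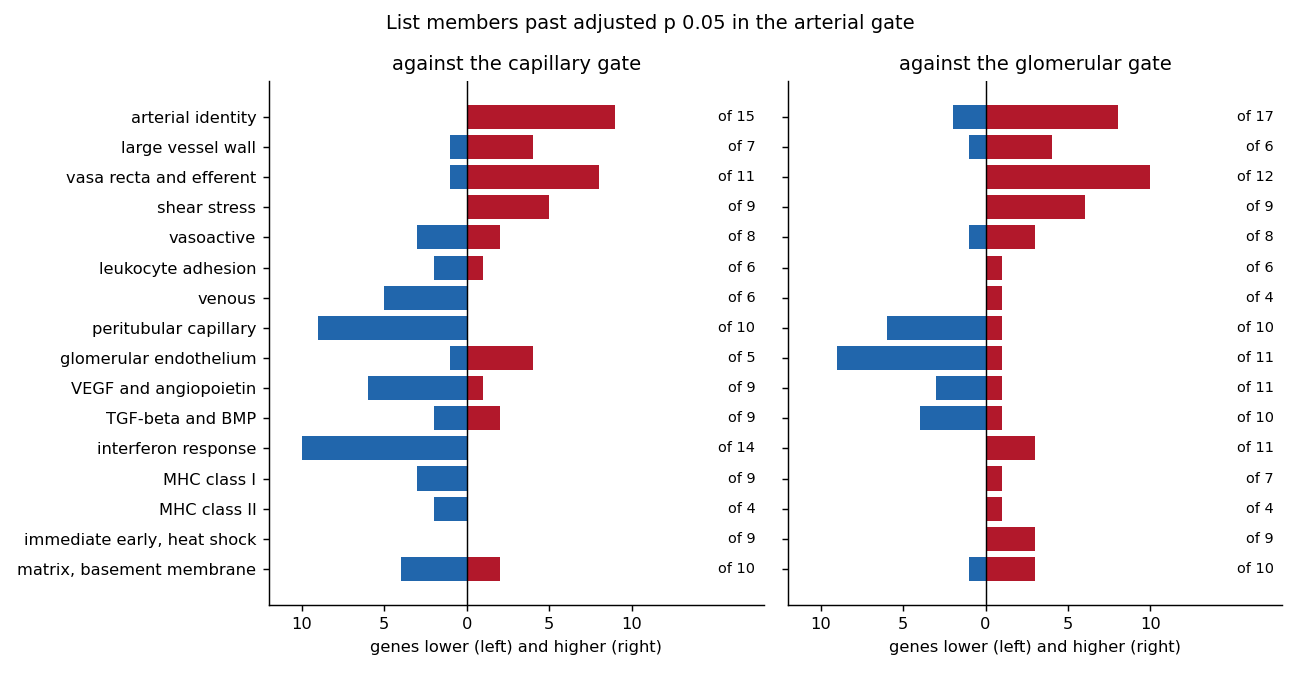
Number of genes of each list that were higher (red, right) or lower (blue, left) in the arterial gate at an adjusted p under 0.05, against the capillary gate (left panel) and the glomerular gate (right panel), with the number tested at the right edge. The interferon list has 10 lower genes against capillaries, and the vasa recta list has 10 higher genes against the glomerulus.

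Arterial gate cells were a larger share of endothelium in day 2 than in the other libraries. Of cells with at least 2 Egfl7 UMIs and no Ptprc, 15 of 194 in sham (7.73%, 95% exact interval 4.39 to 12.4), 21 of 158 in day 2 (13.3%, 8.42 to 19.6), 22 of 432 in day 7 (5.09%, 3.22 to 7.61) and 19 of 356 in reversed (5.34%, 3.24 to 8.21) passed the gate. With every cell thinned to 1000 UMIs the shares were 8.74% (9 of 103, 4.07 to 15.9), 16.4% (12 of 73, 8.79 to 27.0), 5.16% (11 of 213, 2.61 to 9.05) and 4.73% (7 of 148, 1.92 to 9.50). The day 2 interval lies above those of day 7 and reversed at full depth and overlaps that of sham. After thinning it overlaps those of sham, day 7 and reversed. These intervals cover counting error only, a share falls when other endothelial cells are captured more often, and with 1 library each no test was possible.

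**Figure D4:**
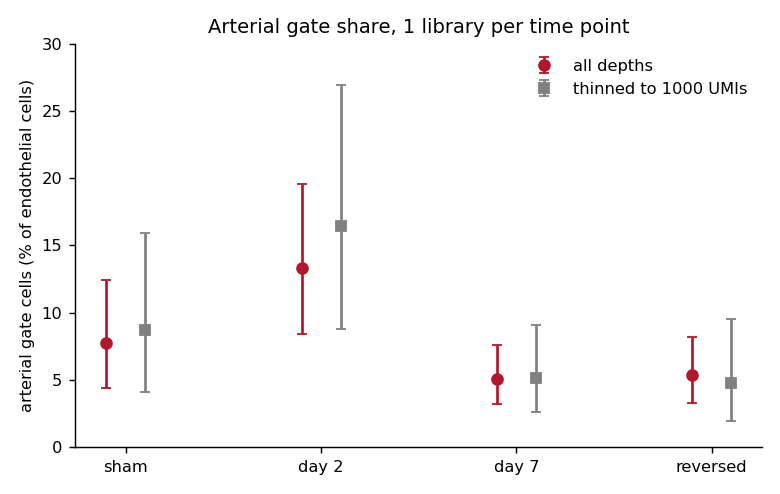
Share of endothelial cells (at least 2 Egfl7 UMIs, no Ptprc) that passed the arterial gate (y axis, percent) in each library, at full depth (circles) and after thinning to 1000 UMIs (squares), with 95% exact intervals for counting error. The day 2 library is highest, at 13.3% and 16.4%.

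Differences between time points rest on 1 library each and are given as log2 ratios of CPM plus 10 CPM, with 95% exact conditional binomial intervals that cover counting error only. Genes with at least 20 UMIs over both libraries were considered. From sham to day 2, 135 of 1300 such genes (10.4%) were more than 2-fold higher and 103 (7.92%) more than 2-fold lower. Scaling by TMM factors moved the median of all genes from 0.03 to 0.35 and the split to 258 higher and 52 lower. From day 2 to day 7, 122 of 1890 (6.46%) were higher and 111 (5.87%) lower. From day 7 to reversed, 96 of 1679 (5.72%) were higher and 77 (4.59%) lower. Reversed against sham gave 100 of 1094 (9.14%) higher and 84 (7.68%) lower, and 170 and 36 with TMM factors, where the median moved from -0.05 to 0.25.

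The endothelin genes moved with time. Edn1 had 9, 53, 12 and 25 UMIs in 5, 12, 6 and 5 cells of sham, day 2, day 7 and reversed, or 227, 474, 117 and 288 CPM. The level was highest in day 2 and lowest in day 7, a log2 ratio of 1.03 (0.03 to 2.17) from sham to day 2, -1.93 (-2.87 to -1.06) from day 2 to day 7 and 1.23 (0.24 to 2.26) from day 7 to reversed. Ece1, the enzyme that activates endothelin 1, had 1, 24, 30 and 16 UMIs in 1, 16, 14 and 10 cells and was 2.67 (0.45 to 4.45) higher on the log2 scale in day 2 than in sham. Ednrb, a receptor that clears endothelin, had 3, 4, 17 and 15 UMIs and was 1.94 (0.54 to 3.33) higher in day 7 than in day 2. In the capillary gate Edn1 was at 21.2, 82.5, 24.9 and 15.9 CPM and Ece1 at 254, 303, 235 and 230.3.

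Arterial identity genes past 2-fold went both ways from each library to the next. From sham to day 2, 1 of 11 with enough UMIs was past 2-fold higher and 4 lower (Stmn2, Mecom, Cxcl12 and Vegfc), with a median of -0.29. From day 2 to day 7, 2 of 14 were higher and 1 lower, with a median of 0.68 against -0.07 over all genes. From day 7 to reversed 4 of 15 were higher (Vegfc, Stmn2, Alpl, Edn1) and 4 lower (Sema3g, Sox18, Dll4, Efnb2). Vegfc stood at 252, 116, 29.2 and 265 CPM over the 4 libraries, from 10, 13, 3 and 23 UMIs, with a log2 ratio of 2.81 (1.34 to 4.22) from day 7 to reversed. Sema3g moved oppositely, at 352, 286, 516 and 138 CPM from 14, 32, 53 and 12 UMIs, with a ratio of -1.83 (-2.78 to -0.95). The Notch ligand gene Dll4 had 4, 8, 19 and 6 UMIs and the endothelial transcription factor gene Sox18 4, 5, 17 and 4, both most frequent in day 7, where they were found in 10 and 11 of the 22 cells. From day 2 to day 7 the log2 ratio was 1.26 (0.10 to 2.45) for Dll4 and 1.68 (0.36 to 3.03) for Sox18. Cxcl12, a chemokine, was at 302, 71.5, 68.1 and 69 CPM, -1.94 (-3.24 to -0.62) from sham to day 2. Gja4, whose CPM are given above, stayed within 2-fold in all 4 comparisons at full depth.

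Several wall genes were lower in day 2 than in sham. From sham to day 2, 4 of 6 large vessel wall genes with enough UMIs were past 2-fold lower and none higher, with a median of -1.70. Eln stood at 403, 107, 87.6 and 207 CPM from 16, 12, 9 and 18 UMIs, Ltbp4 at 428, 125, 156 and 242 and Fbln2 at 428, 125, 117 and 334, each highest in sham, while the UMIs of Cytl1 came from 1 cell in sham and 1 in day 2. The log2 ratio of Eln from sham to day 2 was -1.82 (-2.93 to -0.70), and -1.26 without cells carrying markers of other types. From day 7 to reversed 3 of 5 were higher (Fbln2, Eln, Clu) and none lower. Clu is also an injured tubule gene, found in 63.5% of leukocytes, and 1 cell held 56 of its 97 reversed UMIs. Mgp, at 2416, 1967, 1236 and 1013 CPM, had 74 of its 96 sham UMIs in 1 cell.

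The makeup of the gate has to be set beside these values. Leaving out cells carrying markers of other types kept 16 of the 22 day 7 cells and 57407 of their 102751 UMIs. The cells with Stmn2 were 4 of 15, 5 of 21, 4 of 22 and 6 of 19, and those with Slc14a1 were 3, 5, 3 and 2, so a few cells decide the level of a set's genes. Aqp1 was at 2668, 1448, 526 and 1484 CPM and Igfbp3 at 729.9, 501, 1810.2 and 644 CPM, from 6, 7, 6 and 7 and 7, 9, 12 and 12 cells. Igfbp3 was highest in day 7, with a log2 ratio of 1.83 (1.40 to 2.28) against day 2 and -1.48 (-1.93 to -1.04) for reversed against day 7. Fewer cells of a set and less RNA per cell cannot be told apart in these sums.

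Several class I antigen presentation and interferon genes were lower in day 2 than in sham. Of 5 class I genes 3 were past 2-fold lower, with a median of -1.12, and of 7 interferon genes 4, with a median of -1.08, and none of either list was past 2-fold higher. H2-D1 stood at 3775, 1734, 2725 and 2946 CPM from 150, 194, 280 and 256 UMIs, a log2 ratio of -1.12 (-1.43 to -0.80), or -0.79 with TMM factors. In the capillary gate it was at 3284, 3149.8, 3360.3 and 2701 CPM. Rsad2 was at 478, 152, 204 and 207 CPM, a ratio of -1.59 (-2.57 to -0.61), and its capillary level also ran from 1801 in sham to 509 in day 2.

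Class II genes were higher in day 7. All 4 with enough UMIs were past 2-fold higher in day 7 than in day 2, with a median log2 ratio of 3.11, and all 4 were past 2-fold lower in reversed than in day 7. Cd74 stood at 126, 215, 1732 and 828 CPM, in 5, 12, 22 and 18 cells, and H2-Ab1 at 151, 169.9, 1635 and 667 CPM, in 3, 11, 22 and 19 cells. The same genes moved over all kept cells, where Cd74 was at 1092, 6101, 21103 and 8974 CPM, and the phagocyte list in the arterial gate followed this order. Without cells carrying markers of other types the Cd74 ratio from day 2 to day 7 was 3.17. The part of free RNA in this rise was not tested.

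Of 7 immediate early and heat shock genes with enough UMIs, 3 were past 2-fold higher in day 2 than in sham and none lower, and these 3 had 0 to 3 UMIs in sham. Fos had 0, 47, 28 and 31 UMIs in 0, 7, 8 and 7 cells, at least 5.56-fold higher in day 2 and 4.72-fold in reversed than the sham level set to 3 UMIs. Junb had 3, 41, 40 and 54 UMIs and the heat shock gene Hspa1a 2, 57, 38 and 27. The log2 ratio from sham to day 2 was 2.14 (0.61 to 3.95) for Junb and 3.11 (1.37 to 5.05) for Hspa1a. Over all kept cells Fos was at 65.5, 322, 390.1 and 506 CPM. Single cells weighed heavily, as given above for day 2, and 1 reversed cell held 20 of 31 Fos UMIs. Junb was more evenly spread, in 2, 12, 13 and 12 cells.

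Jam2 was lowest in sham, with 5, 35, 63 and 40 UMIs in 5, 17, 13 and 13 cells, and its log2 ratio was 1.25 (-0.04 to 2.76) in day 2, where the interval includes 0, and 1.79 (0.51 to 3.29) in reversed against sham. Col4a2, a basement membrane collagen gene, had 2, 30, 34 and 11 UMIs, a ratio of 2.20 (0.41 to 4.18) in day 2 against sham and -1.32 (-2.35 to -0.36) in reversed against day 7. Acta2 and Tagln, contractile genes of mural cells, were past 2-fold higher in day 2, but all 52 Tagln UMIs were in 1 cell, which held most of the mural UMIs. Without cells carrying markers of other types the Tagln ratio was 0 and the Acta2 ratio 0.41. No cell cycle gene other than Stmn1, with 3, 34, 5 and 2 UMIs, had enough UMIs in these comparisons.

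**Figure D5:**
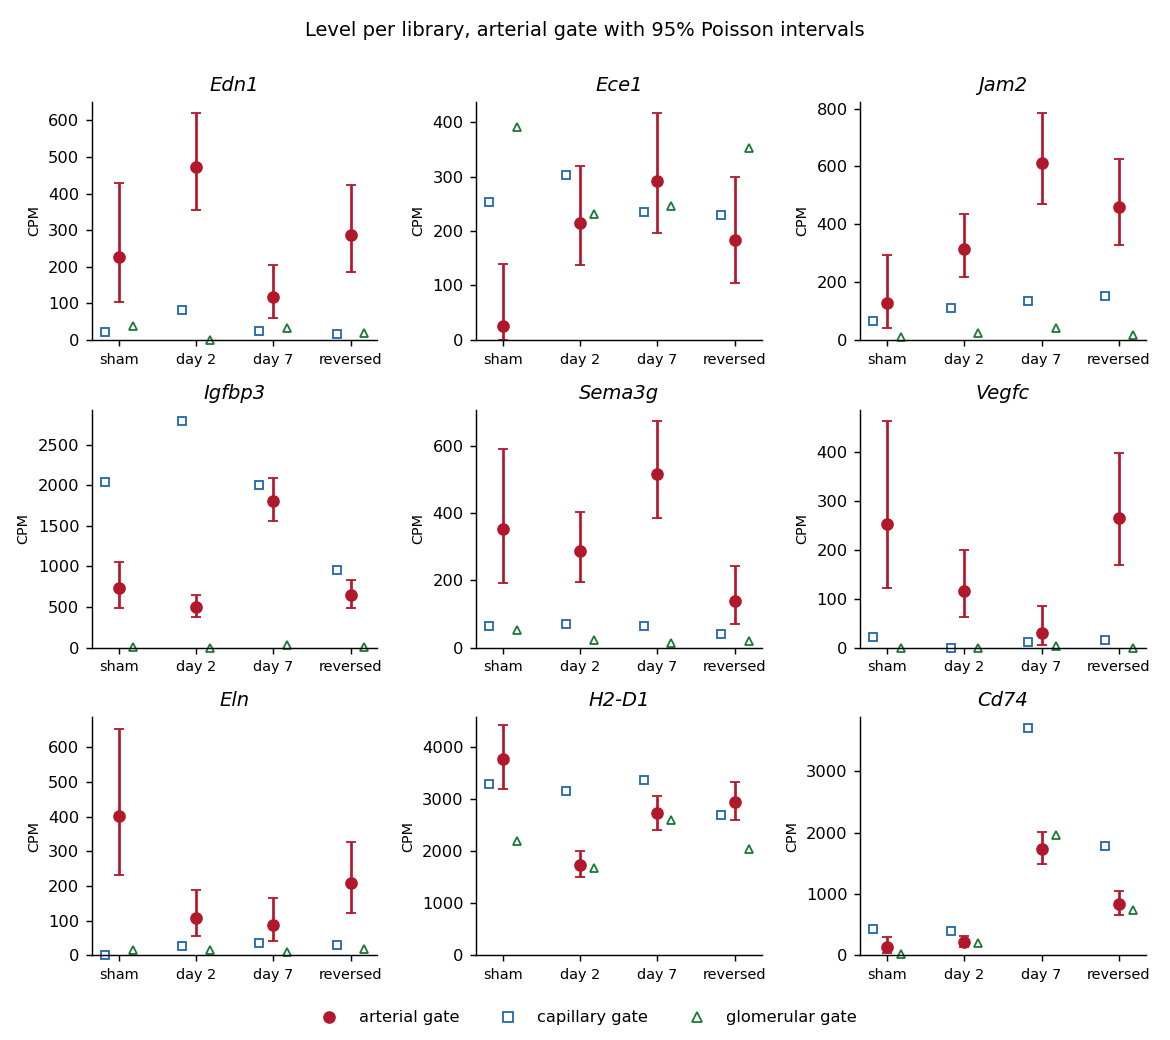
Level in CPM (y axis) of 9 genes in each library: arterial gate (filled circles, with 95% exact Poisson intervals for counting error), capillary gate (open squares) and glomerular gate (open triangles). Edn1 is highest in day 2, Igfbp3 and Sema3g in day 7, and Cd74 peaks in day 7 in all 3 gates.

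The largest differences by rule were taken among genes found in at least 5 arterial cells and enriched there at least 2-fold over all kept cells. In day 2 against sham the increases were Tspan4 (2.98, 0.78 to 4.75), Ece1, Sorbs2 (2.55, 0.31 to 4.34), Col4a2 and Ctla2a (1.83, 0.82 to 3.00). The decreases were the ephrin ligand gene Efna1 (-3.16, -4.50 to -1.84), Pcsk5 (-2.92, -4.28 to -1.55), the phosphatase gene Ptprr (-2.22, -3.15 to -1.32), Cxcl12 and G3bp2 (-1.94, -3.24 to -0.62). Tspan4 rose from 1 UMI to 30 in 14 cells, and its capillary level also ran from 21.2 to 234 CPM. In the same comparison the capillary level ran from 403 to 3246 CPM for Ctla2a, 254 to 550 for Col4a2 and 21.2 to 27.5 for Sorbs2. Ptprr, at 705, 143, 58.4 and 127 CPM over the 4 libraries, was found in 8, 7, 6 and 7 cells and stayed lower in reversed (-2.39, -3.45 to -1.38). All these intervals lie on 1 side of 0, but the genes were picked for the size of the same ratios, so this is no test of them. The same holds for the genes picked in the comparisons below.

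In day 7 against day 2 the increases were Ramp3 (3.23, 1.97 to 4.52), Mier1 (2.47, 1.14 to 3.81), Ednrb, 1810011O10Rik (1.86, 0.44 to 3.26) and Igfbp3, and the decreases Adrm1 (-2.05, -3.49 to -0.53), Tmem252 (-2.03, -3.15 to -0.99), 2700094K13Rik (-1.94, -3.26 to -0.67), Edn1 and Cirbp (-1.88, -3.21 to -0.60). Ramp3, a receptor activity-modifying protein gene, had 26 of its 43 day 7 UMIs in 1 cell, and without cells carrying markers of other types its ratio was 0.63. Mier1, by contrast, was spread over 16 of the 22 day 7 cells.

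In reversed against day 7 the increases included Vegfc, Nfic (1.89, 0.56 to 3.26), the peptide-amidating enzyme gene Pam (1.82, 0.82 to 2.88) and Gstp1 (1.67, 0.40 to 2.98). The decreases were Igfbp5 (-2.38, -3.80 to -1.04), St8sia6 (-2.20, -3.71 to -0.68), Ramp3 (-2.07, -3.20 to -1.04), Sema3g and Sra1 (-1.79, -3.17 to -0.50). Without cells carrying markers of other types the Ramp3 ratio changed direction, to 0.58. Igfbp5 had 18, 23, 29 and 4 UMIs in 2, 4, 5 and 3 cells, 25 of the 29 in day 7 coming from 1 cell, while its level in the capillary gate was 3750.1, 977, 1164 and 1705 CPM.

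Reversed against sham compares kidneys 7 days after release with kidneys never obstructed. The increases were Lrg1, Apold1 (2.84, 0.59 to 4.63), Sorbs2 (2.84, 0.59 to 4.63), Eif3c (2.36, 0.55 to 4.35) and Hip1 (2.06, 0.22 to 4.07). Lrg1, which encodes a glycoprotein of activated endothelium, had 0, 18, 13 and 20 UMIs in 0, 4, 5 and 5 cells, at least 3.05-fold higher in reversed than the sham level set to 3 UMIs. Sorbs2 was found in 1, 9, 7 and 12 cells. The capillary gate was also higher in reversed than in sham for these genes. From sham to reversed it ran from 42.4 to 421 CPM for Lrg1, 21.2 to 79.4 for Apold1 and 21.2 to 31.8 for Sorbs2. Eif3c ran from 106 to 159 and Hip1 from 42.4 to 188. The decreases were Ptprr, Cwc15 (-2.29, -3.68 to -0.95), Atp6ap1 (-1.92, -3.21 to -0.67), Nck1 (-1.90, -3.26 to -0.56) and Clec14a (-1.82, -2.86 to -0.81).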

How the data were processed

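For 4 droplet libraries the files deposited by the authors hold untransformed UMI counts, 1 value for each gene in each cell, which per the labels' protocols were made with 10x 3' version 2 chemistry. The submitters' processing notes name Cell Ranger, STAR and the mouse build GRCm38 (mm10), with versions not given in the sources used here. The matrices held 28692 gene IDs and 5938, 2739, 4504 and 3695 cells (sham, day 2, day 7, reversed), of which 3933, 2207, 4447 and 3236 were kept. A plate-based sample that mixes time points was not used. Counts were summed per library and gate and tested with edgeR 4.0.16 (R 4.3.3; TMM factors, filterByExpr, quasi-likelihood test, library as a block, Benjamini-Hochberg adjustment) after removing the 7 gate genes. The procedure was run on simulated counts with the same spread for every gene and no difference between libraries but depth. Those counts do not cover differences between conditions or genes held mostly by 1 cell. Where 1 gate had no UMI, a fold was computed against 3 UMIs over that gate, or over that library for time comparisons. Python 3.11.15, scipy 1.17.1 and scanpy 1.11.5 did the rest.

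Intervals and floors cover counting error only, and reads were counted by UMI. Differences between time points have no replicate, and the mice within a pool cannot be separated. Between gates, the genes named were the 10 largest increases and 10 largest decreases among called genes on the same side in every library, plus members of 31 gene lists (337 genes), 12 of which hold markers of other cell types, among them veins and lymphatics. Between time points they were the 5 largest in each direction, as given in the report, plus list members; 1 gene that this rule names is not reported here. The cells, lists and rules were chosen with earlier results of these data known, so no list is independent evidence of its direction. Some genes are in more than 1 list, among them Vcam1 (venous, adhesion and injured tubule), Edn1 and Cldn5, so the lists are not separate from each other. A rise or fall between gates means an adjusted p under 0.05. Alternatives were DESeq2 1.42.0, no low-count filter, no library block, each library left out, a mitochondrial limit of 20%, a gate sum of at least 3, 2 of the 3 gate genes detected, Scrublet doublets removed, cells thinned to 1000 UMIs, a pseudocount of 1 CPM, TMM factors, equal weight per cell, and a denominator of at least 1 Egfl7 UMI. Leaving out cells with at least 3 UMIs of any of Slc34a1, Slc12a1, Slc12a3, Aqp2, Myh11, Col1a1, Nphs1, C1qa and Cd3e was added after seeing the data. Doublets were kept in the main results. The automatic Scrublet threshold marked 0, 8, 2 and 25 cells, so the alternative removed the highest scores at an expected rate of 0.8% per 1000 cells, among them 3 arterial gate cells.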

Additional observations from a re-analysis of the deposited data

How the results depend on the processing

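The count of genes higher in the arterial than in the capillary gate (138) was 83 with DESeq2, 65 without the library block (no replicate block), 26 with cells thinned to 1000 UMIs, and 72 to 134 with 1 library left out. The lower count (173) was 76 with DESeq2, 278 without a low-count filter, 84 without the replicate block, 32 after thinning and 91 to 171 with 1 library left out. Against the glomerular gate the higher count (276) was 128 without the replicate block, 70 after thinning and 200 to 226 with 1 library left out. The lower count (266) was 156 with DESeq2, 162 without the replicate block, 76 after thinning and 204 to 232 with 1 library left out. Thinning kept the same cells in each gate with fewer UMIs (15000 against 39732 in the sham arterial gate), and the cause of the other shifts was not tested. The block pairs the gates of 1 library, which come from the same pool of mice.

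Past 2-fold, thinning gave 237 higher and 207 lower genes in day 2 against sham, 324 and 342 in day 7 against day 2, 321 and 288 in reversed against day 7, and 189 and 194 in reversed against sham. TMM factors gave 258 and 52 in day 2 against sham and 170 and 36 in reversed against sham. With at least 1 Egfl7 UMI as the denominator, the arterial share was 4.35% in sham and 7.89% in day 2. Without cells carrying markers of other types, the arterial against glomerular log2 fold change of the proximal tubule gene Gpx3 turned to 0.011 and the Ramp3 ratio of reversed against day 7 to 0.58. No other named gene with a value changed direction in the settings run. Of the named genes with a value, DESeq2 left 165 of 217 on the same side of the threshold and 52 below it, the fit without the replicate block 115 of 154, and the run without cells carrying other-type markers 218 of 241. With 15 to 22 arterial gate cells per library, genes of a few UMIs could not be compared.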
